A study of Homo sapiens with 2 samples.

Results

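Cells carry surface proteins that hold immune cells back, and 7 such genes were followed here in BT549 cells: CD274 (PD-L1), PDCD1LG2 (PD-L2), CD276 (B7-H3), CD47, PVR (CD155), NECTIN2 (CD112) and NT5E (CD73). They were taken by symbol from the 58735 genes of each deposited table, all 7 were found in both, and all 7 were measured, meaning at least 1 FPKM in the higher library. FPKM is a read count per kilobase of exon, as a rule scaled for the sequencing depth of each library. The deposited values used the same scale for both libraries. BT549 is an established human triple-negative breast cancer cell line. A scrambled group, with a control shRNA, was compared with an shSIK2 group, in which a short hairpin RNA lowers SIK2, a salt-inducible kinase. Both groups had been treated with the ligand Wnt3a for 2 h, so no culture without Wnt3a enters the comparison. There was 1 library per group, so differences could not be set against a spread between replicates, and p-values are left out. The sources used here do not say how many hairpins or clones were used.

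Checkpoint ligands are proteins on tumour or antigen-presenting cells that bind inhibitory receptors on lymphocytes and myeloid cells. CD274 and PDCD1LG2 bind PD-1 on T cells, and transcription of CD274 is known to be induced by interferons through JAK-STAT signalling and IRF1. PVR and NECTIN2 bind the inhibitory receptor TIGIT and the activating receptor CD226 on T and NK cells. CD47 binds SIRPA on macrophages and restrains phagocytosis. NT5E is an ectoenzyme that turns AMP into adenosine, which dampens T cells through adenosine receptors. CD276 is a B7 family protein that is common on solid tumours and whose receptor is not settled.

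In the shSIK2 library 6 of the 7 genes had a lower FPKM value than in the scrambled library, and CD276 had a higher one. Most measured genes also had a lower value as deposited, with a median log2 ratio of -0.11. At equal totals CD47 was only 1.03-fold lower. CD274, PDCD1LG2 and NT5E were at least 2-fold lower, CD276 was at least 2-fold higher, and PVR, NECTIN2 and CD47 lay between. Thus 3 of 7 genes were at least 2-fold lower, where 8.28% of all 12866 measured genes were, and 1 of 7 was at least 2-fold higher, where 11.0% were. With both libraries brought to equal totals the counts of the 7 genes were again 3 and 1, where 6.04% and 13.4% of measured genes were lower and higher. The 2-fold rule was applied to log2(FPKM + 0.1), and the genes were chosen with earlier results of these data known, so these shares are a description. The median log2 ratio of shSIK2 over scrambled was -0.75 over the 7 genes and -0.11 over all measured genes. The libraries came from whole cultures, so fewer cells with a transcript and less transcript per cell cannot be told apart.

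**Figure D1:**
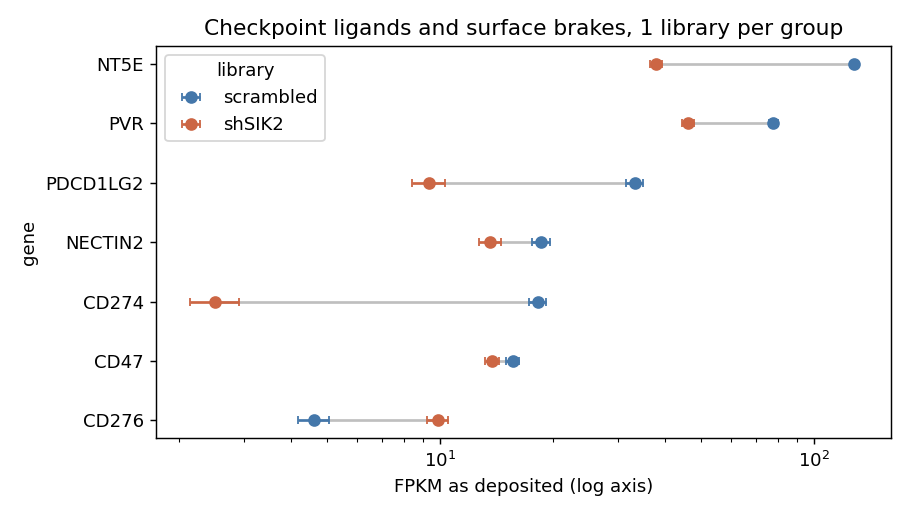
FPKM of the 7 genes on a log axis in the scrambled and shSIK2 libraries, 1 library per group, with bars for the 95% counting interval of the reads. The shSIK2 value lies left of the scrambled value for every gene but CD276, with the widest gap for CD274 (18.2 and 2.50 FPKM) and the narrowest for CD47 (15.6 and 13.8 FPKM).

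Reads behind each value were recovered from the FPKM values (see the account of the processing), with 18019225 for scrambled and 16347399 for shSIK2. Each of the 7 genes had at least 176 reads in each library. Folds are ratios of these reads, and their 95% intervals cover counting error only, because there was 1 library per group. PCR copies of a molecule cannot be recognised, so the intervals may be too narrow even for counting error. The deposited values are not scaled to the read total of each library. With equal totals the ratio of reads is 0.14 higher on the log2 scale, slightly less with the pseudocount for genes of low level, and the median over all measured genes is 0.03 in place of -0.11. Set against that overall median, the log2 ratio was -2.71 for CD274, -1.71 for PDCD1LG2, -1.65 for NT5E, -0.64 for PVR, -0.34 for NECTIN2, -0.07 for CD47 and 1.19 for CD276. The hairpin's target SIK2 stood at 7.80 FPKM in the scrambled and 3.56 FPKM in the shSIK2 library (1312 and 599 reads), 2.19-fold lower (1.99 to 2.42), or 1.99-fold at equal totals. Markers of other cells were at or near 0: none of 14 leukocyte markers and none of 6 endothelial markers reached 1 FPKM. The leukocyte markers summed to 29 reads in the scrambled and 39 in the shSIK2 library (0.641 and 0.771 FPKM), 9 of them with 0 in both, among them CD3E and CD68. The endothelial markers summed to 8 reads and 1 read, with PECAM1 and CDH5 at 0. Of the mesenchymal markers 6 of 7 were measured, led by VIM, the intermediate filament vimentin, at 260.3 and 283 FPKM. Of 7 hormone receptor and luminal markers 3 were measured: KRT18, GATA3 (11.5 and 18.6 FPKM) and ERBB2 (4.96 and 6.75 FPKM). Oestrogen and progesterone receptor were at or near 0 (ESR1 6 and 0 reads, PGR 0 in both). Some markers differed between the libraries: the luminal keratin KRT18 stood at 2.14 and 19.3 FPKM, the matrix gene SPARC at 38.1 and 189 FPKM and the mesenchymal cadherin CDH2 at 2.44 and 0.4 FPKM, and their part in the results was not tested.

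CD274 showed the largest difference of the 7 genes. It encodes PD-L1 (ENSG00000120217; GENCODE 29 on GRCh38, chromosome 9, 5450503 to 5470566, plus strand). Its level was 18.2 FPKM in the scrambled and 2.50 FPKM in the shSIK2 library, from 1286 and 176 exonic reads. The difference was 7.31-fold (95% counting interval 6.24 to 8.60) as deposited, or 6.63-fold at equal totals. Of all measured genes, 147 (1.14%) had a log2 ratio at least as low. In the scrambled library 79.6% of measured genes had fewer FPKM than CD274, and in the shSIK2 library 26.9% did. Among the 7 genes it held the fifth place by FPKM with the scrambled hairpin and the last place with shSIK2.

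The start of CD274 is shown here because it is the gene with the largest difference and because interferon control of it is known. Of the 7 genes, 6 had an entry in the RefSeq promoter table (GRCh38.p14, windows of 250 bases before to 50 after a start), with 7 windows in all, and PDCD1LG2 had none. The stretch below is chr9:5450292-5450502 on the plus strand, from base -250 to base -40 before the RefSeq start, and ends where the GENCODE gene begins. Capitals mark the IRF element (GAAA, any 2 bases, GAAA), with 2 overlapping matches on the opposite strand, and further on the STAT element (GAS) TTCNNNGAA.
CD274: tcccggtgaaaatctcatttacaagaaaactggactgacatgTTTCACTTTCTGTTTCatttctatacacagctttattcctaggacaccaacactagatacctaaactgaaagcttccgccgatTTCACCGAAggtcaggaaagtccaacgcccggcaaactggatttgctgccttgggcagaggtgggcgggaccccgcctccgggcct
The IRF matches begin at bases -208 and -202 and the GAS match at base -125. Searched on both strands of the whole window, the IRF element was found in 3.57% of the 35116 promoters of the table, the GAS in 7.66% and both together in 0.439%. Of the 6 genes with a window, CD274 was the 1 with an IRF element and the 1 with a GAS. The GAS form with a spacer of 4 bases, TTC, any 4 bases, GAA (6.44% of promoters), was found in none of the member windows. The windows of the other genes held the hypoxia element ACGTG in CD47 and CD276 (21.4% of promoters), the CRE TGACGTCA in NECTIN2 (1.85%) and an NF-kB site in CD276 (11.3%). No window of these genes held the AP-1 letters TGANTCA (7.71%), the TCF/LEF letters CTTTGAT (2.62%) or CTTTGAA (4.43%), or the heat shock letters GAANNTTC (6.77%). Such a match describes letters in the window and not binding.

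PDCD1LG2 encodes PD-L2, the other ligand of PD-1 (ENSG00000197646, chromosome 9, 5510570 to 5571254, plus strand), and starts 40.0 kb beyond the end of CD274. It had 33.2 FPKM in the scrambled and 9.34 FPKM in the shSIK2 library (1346 and 379 reads). That made it 3.55-fold lower (3.17 to 3.99), or 3.22-fold at equal totals, and 2.44% of measured genes were at least as low. Both PD-1 ligands were thus lower, but not by the same factor. The level of PDCD1LG2 was 1.82 times that of CD274 in the scrambled and 3.74 times in the shSIK2 library, a 2.06-fold shift between libraries (1.69 to 2.51, exact conditional interval of counting error). The shift is a ratio within each library and does not depend on the scaling between libraries.

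**Figure D2:**
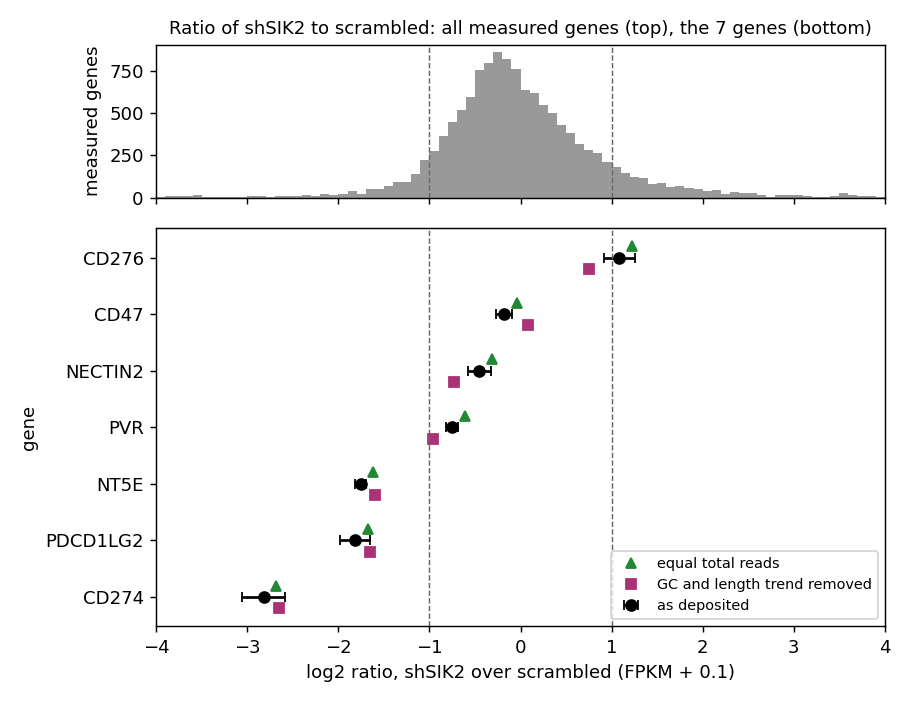
Log2 ratio of shSIK2 over scrambled for all measured genes (histogram, top) and for the 7 genes (bottom), as deposited with the 95% counting interval, at equal total reads, and with the trend with GC content and exon length removed. Dashed lines mark 2-fold: CD274, PDCD1LG2 and NT5E lie beyond the lower line under all settings drawn, and CD276 lies beyond the upper line except with the trend removed.

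NT5E was the most abundant of the 7 genes in the scrambled library and encodes the adenosine-producing ectoenzyme CD73 (ENSG00000135318, chromosome 6, 85449584 to 85495791, plus strand). Its level was 128 FPKM there and 37.8 FPKM in the shSIK2 library, from 9960 and 2941 reads. It was 3.39-fold lower (3.25 to 3.53), or 3.07-fold at equal totals, and 2.55% of measured genes were at least as low. Of the FPKM summed over the 7 genes, NT5E made up 43.2% with the scrambled hairpin and 28.4% with shSIK2, where PVR was the most abundant.

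CD276, a B7 family ligand (ENSG00000103855, chromosome 15, 73683966 to 73714518, plus strand), was the member with more reads in the shSIK2 library. Its level was 4.59 FPKM in the scrambled and 9.86 FPKM in the shSIK2 library (437 and 938 reads), 2.15-fold higher (1.91 to 2.41), or 2.37-fold at equal totals. It was the least abundant of the 7 in the scrambled library, with 0.252 times the FPKM of CD274, and stood at 3.95 times the FPKM of CD274 in the shSIK2 library. Its log2 ratio of 1.09 lay just past 2-fold, and 9.78% of measured genes were at least as high. The call ended with a pseudocount of 1 (0.96) and with the trend with GC content and length removed (0.75). CD276 has a GC content of 61.0%, and the measured genes were cut into 10 equal bins by GC content; the bin of CD276, number 9 from the lowest, had a median log2 ratio of 0.21.

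PVR and NECTIN2 are related nectin family genes that lie close together on chromosome 19. PVR (ENSG00000073008, 44643798 to 44663583, plus strand), the high-affinity ligand of TIGIT, stood at 77.9 FPKM in the scrambled and 46.2 FPKM in the shSIK2 library, from 4705 and 2790 reads. It was 1.69-fold lower (1.61 to 1.77), or 1.53-fold at equal totals, short of 2-fold. NECTIN2 (ENSG00000130202, 44846175 to 44889228, plus strand), a ligand of PVRIG and of TIGIT, stood at 18.7 and 13.6 FPKM, from 1200 and 875 reads. It was 1.37-fold lower (1.26 to 1.5), or 1.24-fold at equal totals. The level of PVR was 4.17 times that of NECTIN2 in the scrambled and 3.40 times in the shSIK2 library, a 1.23-fold shift (1.11 to 1.36). With the trend with GC content and length removed, the log2 ratio was -0.97 for PVR, against -0.75 as deposited, and -0.73 for NECTIN2, against -0.45. Antisense or overlapping genes had few reads beside them: AC243964.2 (8 and 24 reads) and CEACAM19 (14 and 16) at PVR, and AC011481.2 (0 and 3) at NECTIN2.

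CD47, the signal that restrains phagocytosis (ENSG00000196776, chromosome 3, 108043094 to 108091862, minus strand), differed least. Its level was 15.6 FPKM in the scrambled and 13.8 FPKM in the shSIK2 library (2208 and 1945 reads), 1.14-fold lower (1.07 to 1.21), or 1.03-fold at equal totals. With the trend with GC content and length removed its log2 ratio was 0.08, against -0.18 as deposited, so its direction turned with that trend removed. The log2 ratio of PVR was lower than that of CD47 by more than counting error, with a 1.49-fold difference between their ratios (1.37 to 1.61).

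Summed over the 7 genes, the level was 296 FPKM in the scrambled and 133 FPKM in the shSIK2 library. NT5E and PVR made up most of both sums. In the scrambled library the order from the highest level was NT5E, PVR, PDCD1LG2, NECTIN2, CD274, CD47 and CD276. NECTIN2 (17.6 to 19.7 FPKM) and CD274 (17.3 to 19.3) did not differ beyond counting error there. The order in the shSIK2 library was PVR, NT5E, CD47, NECTIN2, CD276, PDCD1LG2 and CD274. There the counting intervals overlapped for CD47 (13.2 to 14.4 FPKM) and NECTIN2 (12.7 to 14.5), and for CD276 (9.24 to 10.5) and PDCD1LG2 (8.42 to 10.3). The gap between the highest and the lowest of the 7 was 27.9-fold in the scrambled and 18.5-fold in the shSIK2 library.

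**Figure D3:**
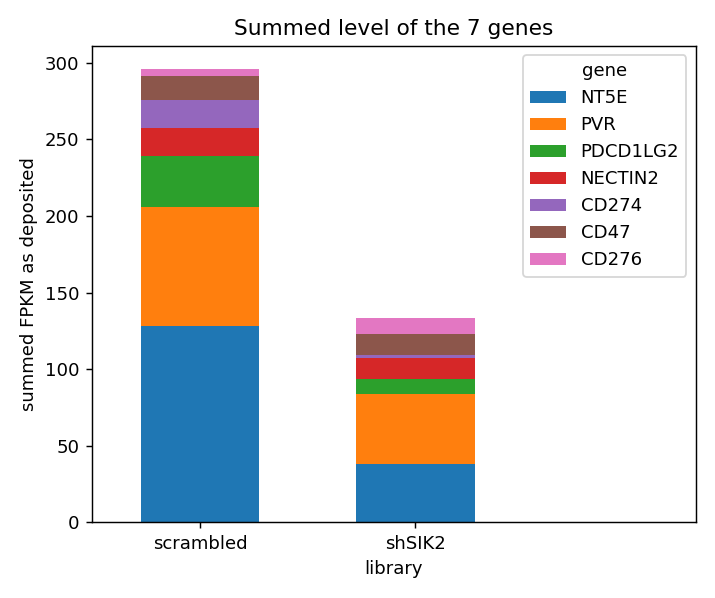
Summed FPKM of the 7 genes in each library, stacked by gene. The sum is 296 FPKM in the scrambled and 133 FPKM in the shSIK2 library, and NT5E makes up 43.2% and 28.4% of it.

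Most genes next to CD274 and PDCD1LG2 on 9p also had lower values in the shSIK2 library. The same held for most measured genes of the whole table as deposited, with a median log2 ratio of -0.11. Among measured protein-coding genes at large, 6.63% were at least 2-fold lower and 8.41% at least 2-fold higher. Within 1 Mb of CD274, 12 protein-coding genes other than PDCD1LG2 were measured, with fewer FPKM in the shSIK2 library for 9 of them. In this set 5 were at least 2-fold lower, or 2 at equal totals, and 1 was higher, with a median log2 ratio of -0.83 and a range from -1.66 to 1.14. CD274 lay 1.99 and PDCD1LG2 0.99 log2 units below that median. The nearest gene before CD274, the plasminogen receptor gene PLGRKT, stood at 24.7 and 11.8 FPKM (2.09-fold lower, 1.82 to 2.41). JAK2, a kinase of interferon receptor signalling 322 kb before CD274, stood at 14.1 and 6.63 FPKM (2.12-fold lower, 1.94 to 2.32; log2 ratio -0.93 at equal totals).

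Other neighbours showed the spread of that stretch. UHRF2, a ubiquitin ligase, was 2.3-fold lower (2.18 to 2.44) and RCL1, a ribosome biogenesis factor, 2.06-fold lower (1.88 to 2.26). MLANA, the melanocyte antigen Melan-A, had 59 and 15 reads. KIAA2026, RIC1 and CDC37L1 were 1.82-fold, 1.74-fold and 1.55-fold lower. AK3, an adenylate kinase, differed by 1.13-fold and ERMP1 by 1-fold. RANBP6 was 1.21-fold higher and PLPP6, a lipid phosphatase, 2.27-fold higher (1.75 to 2.97). Thus CD274 lay in a stretch with lower, equal and higher genes, and its own log2 ratio was below that of every measured protein-coding gene within 1 Mb.

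Along the whole arm 9p, 157 genes other than the pair were measured, of which 31 (19.7%) were at least 2-fold lower and 14 (8.92%) higher, with a median of -0.46. Here genes of all types were counted, and among all measured genes 8.28% were lower and 11.0% higher. On the long arm 9q, 28 of 402 (6.97%) were lower and 51 (12.7%) higher, with a median of -0.09. In the first 10 Mb of the chromosome, where the pair lies, 10 of the 26 others were lower and the median was -0.83, or -0.72 with the GC and length trend removed. The stretch from 20 to 30 Mb was alike, with 10 of 25 lower and a median of -0.84. At equal totals the medians of these stretches were -0.69 and -0.70. From 10 to 20 Mb 4 of 20 were lower, with a median of -0.52. From 30 to 43 Mb, with 86 genes, 7 (8.14%) were lower and 10 (11.6%) higher, with a median of -0.30. Several lower genes of the first 10 Mb lay just past 2-fold as deposited, such as GLDC (-1.02), RCL1 (-1.03), PLGRKT (-1.06) and JAK2 (-1.07). At equal totals these genes did not reach 2-fold (-0.88, -0.89, -0.92 and -0.93). DNA copy number was not measured, so its part in these values was not tested. Around the other members the medians of neighbours ran from -0.33 to 0.28, apart from CD47. Its 5 measured neighbours within 1 Mb had a median of -0.87, 1 of them at least 2-fold lower (0 at equal totals), while CD47 itself had -0.18; the nearest were IFT57, a cilium gene (1.88-fold lower), and BBX (1.29-fold lower). For NT5E the 3 measured neighbours had a median of -0.33 with none beyond 2-fold, among them SNX14, 9.70 kb beyond it (1.26-fold lower), and TBX18 before it (1.19-fold lower). For CD276 the 11 neighbours had a median of 0.28, with 2 higher (4 at equal totals, 1 with a pseudocount of 1) and 0 lower; the nearest were NPTN (1.04-fold lower) and LOXL1, a lysyl oxidase (1.91-fold higher). The 41 neighbours of PVR had a median of -0.07 and the 46 of NECTIN2 one of -0.03, in sets that overlap, with 7 higher and 3 lower in each. At equal totals 1 was lower in each set and the medians were 0.07 and 0.10, and with a pseudocount of 1 the counts were 4 higher and 1 lower in each. Nearest to PVR were IGSF23 (0 and 27 reads, at least 9-fold higher, with 3 reads as the upper limit for a count of 0) and BCL3 (1.06-fold lower), and nearest to NECTIN2 were BCAM (1.81-fold higher) and TOMM40 (1.31-fold lower).

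**Figure D4:**
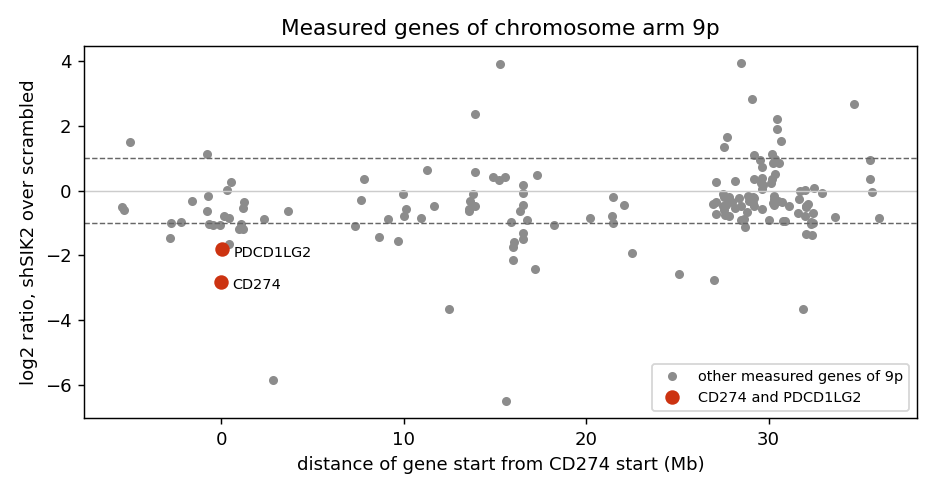
Log2 ratio of shSIK2 over scrambled for each measured gene of chromosome arm 9p against the distance of its start from the start of CD274 in Mb. CD274 (-2.82) and PDCD1LG2 (-1.82) are in red, dashed lines mark 2-fold, and of the other 157 genes 31 lie on or below the lower line and 14 on or above the upper one.

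Related genes were read from 9 lists, which together named 125 genes other than the 7, with 79 measured. Of these 79, 7 were at least 2-fold higher and 5 lower as deposited, where 11.0% and 8.28% of all measured genes were. At equal totals 10 were higher and 1 lower, where 13.4% and 6.04% of all measured genes were. The median log2 ratio of the 79 was -0.03 as deposited. Other B7 family and butyrophilin ligands were few: 5 of 14 were measured, 1 higher and 0 lower, with a median of 0.63. None was higher with a pseudocount of 1 (median 0.38) or a filter of 5 FPKM (median -0.14). BTN3A1, a butyrophilin seen by gamma delta T cells, stood at 1.07 and 2.32 FPKM (2.17-fold higher, 1.71 to 2.77). BTN2A2 and BTN3A2 were 1.76-fold and 1.62-fold higher; the butyrophilin genes are close copies, so how their reads divide is uncertain. NCR3LG1 (B7-H6), a ligand of the NK receptor NKp30, stood at 9.99 and 6.05 FPKM, 1.65-fold lower (1.5 to 1.82). CD80, CD86 and HHLA2 had 0 reads in both libraries.

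Among the other nectins and nectin-like proteins 5 of 8 were measured, 0 higher and 1 lower, with a median of -0.45. The lower one was AFDN, the actin linker afadin, at 7.55 and 3.50 FPKM (2.16-fold lower, 1.99 to 2.35; log2 ratio -0.95 at equal totals). NECTIN3 stood at 10.6 and 7.79 FPKM, 1.37-fold lower (1.25 to 1.5). CADM1 and CADM4, adhesion molecules, were 1.53-fold lower and 1.55-fold higher.

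Genes of the adenosine pathway around NT5E were divided: of 17 genes 10 were measured, 4 higher and 0 lower, with a median of 0.32. The 4 were SLC29A2, a nucleoside transporter (1.67 and 5.48 FPKM, 3.28-fold higher, 2.54 to 4.29), ALPL, an alkaline phosphatase (2.81-fold, 2.35 to 3.38), ADORA1, an adenosine receptor (2.46-fold, 2.02 to 3), and ADA, adenosine deaminase (2.31-fold, 1.87 to 2.87). With the trend with GC content and length removed, 3 were higher and the median was 0.10, and with a pseudocount of 1 the calls of ADORA1 and ADA ended, leaving 2. The counts of 4 higher and 0 lower as deposited stand beside 11.0% and 8.28% of all measured genes.

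Other surface brakes had 8 of 15 genes measured, 1 higher and 0 lower, with a median of 0.35. CD24, a sialylated ligand of Siglec-10 on macrophages, stood at 51.8 and 163 FPKM (3.14-fold higher, 3.01 to 3.28). B2M, the light chain of MHC class I, stood at 159 and 101 FPKM, 1.58-fold lower (1.54 to 1.62). The galectin gene LGALS1 and CD59, a complement inhibitor, were 1.54-fold and 1.5-fold higher. Stimulatory ligands had 10 of 18 genes measured and 1 of them was higher, or 2 with equal totals; 0 were lower, or 2 (TNFSF9 and CD70) with the GC and length trend removed, and the median was 0.51. ULBP2, a stress ligand of NKG2D, had 23 and 134 reads (5.83-fold higher, 3.72 to 9.51), though its reads may be shared with close copies of its family. The co-stimulatory ligands TNFSF9 and CD70 stood at 30.3 and 16.2 FPKM and at 126 and 70.02 FPKM, 1.87-fold (1.67 to 2.09) and 1.80-fold (1.70 to 1.90) lower. ICAM1, an adhesion ligand of leukocyte integrins, was 1.84-fold higher (1.69 to 2.00).

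**Figure D5:**
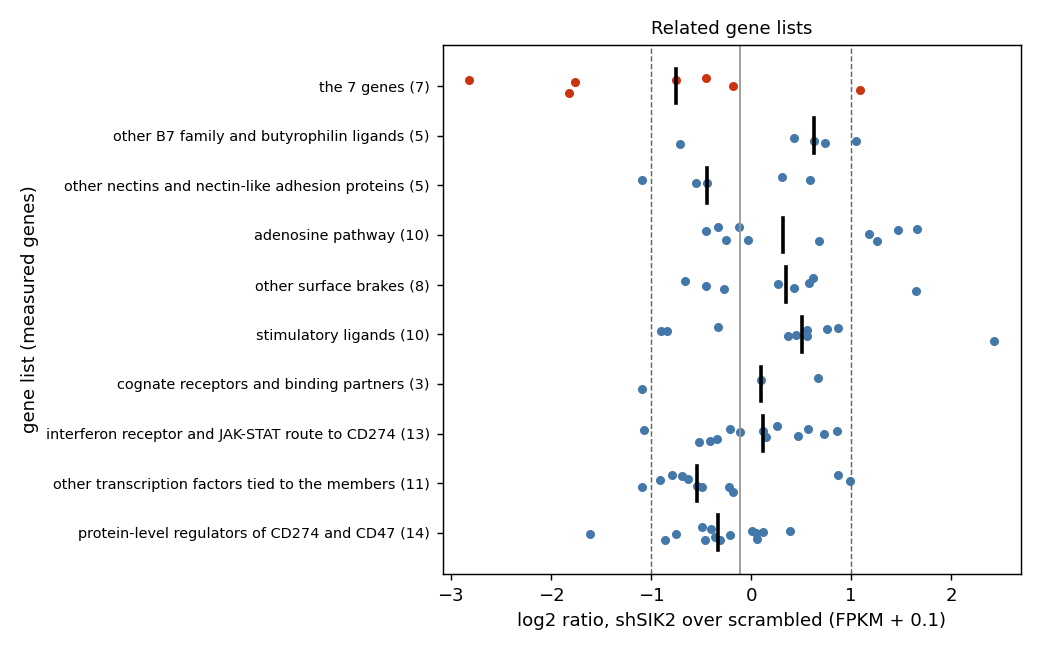
Log2 ratio of shSIK2 over scrambled of each measured gene in the 7 genes (red) and in 9 related lists (blue), with the number measured in brackets, black bars for list medians, a grey line for the median of all measured genes (-0.11) and dashed lines at 2-fold. The medians run from -0.75 for the 7 genes to 0.63 for the other B7 family and butyrophilin ligands.

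Receptors of the 7 proteins sit mainly on immune cells, and 3 of 10 receptors and binding partners were measured, 0 higher and 1 lower. PDCD1, TIGIT and CD96 had 0 reads in both libraries. SIRPA, the receptor of CD47, stood at 1.94 and 0.862 FPKM (2.25-fold lower, 1.71 to 3; log2 ratio -0.96 at equal totals). THBS1, thrombospondin 1, a secreted ligand of CD47, stood at 19.4 and 30.96 FPKM (1.59-fold higher, 1.52 to 1.67). RGMB, a partner of PDCD1LG2, stood at 14.1 and 15.1 FPKM (1.07-fold, 0.998 to 1.14).

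Of the interferon receptor and JAK-STAT genes on the route to CD274, 13 of 16 were measured, 0 higher and 1 lower, with a median of 0.12. The lower one was JAK2, described above. STAT2 and the interferon gamma receptor subunits IFNGR1 and IFNGR2 were 1.84-fold (1.62 to 2.10), 1.65-fold (1.57 to 1.74) and 1.49-fold (1.29 to 1.74) higher. IRF1, the transcription factor named for CD274 above, stood at 11.2 and 8.83 FPKM, 1.27-fold lower (1.17 to 1.37), and was picked with its value in view. CD274, with a 7.31-fold difference, thus differed more than any measured gene of this list. The list held no gene of an interferon itself. IFNB1, the interferon beta gene on 9p, stood at 27.5 FPKM in the scrambled and 0.203 FPKM in the shSIK2 library. It was picked with its value in view, and its part in the level of CD274 was not tested.

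Other transcription factors linked to the 7 genes were all measured, 11 of 11, with 0 higher (2 with equal totals) and 1 lower, and a median of -0.54. NRF1, a factor tied to CD47, stood at 6.40 and 2.95 FPKM (2.17-fold lower, 1.84 to 2.57; log2 ratio -0.95 at equal totals). HIF1A and EPAS1, the oxygen-regulated factors, stood at 108 and 215 FPKM (1.99-fold higher, 1.94 to 2.04) and at 141 and 74.9 FPKM (1.88-fold lower, 1.84 to 1.93). JUN, a subunit of AP-1, was 1.82-fold higher (1.74 to 1.90). Regulators of CD274 and CD47 at the protein level had 14 of 16 genes measured, 0 higher and 1 lower, with a median of -0.33. HIP1R, which directs PD-L1 to lysosomes, stood at 3.85 and 1.20 FPKM (3.21-fold lower, 2.66 to 3.90). USP22, a deubiquitinase, and BTRC and SPOP, subunits of ubiquitin ligases, were 1.82-fold, 1.70-fold and 1.42-fold lower.

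Over 2 libraries the pattern of a gene is its pair of levels. The protein-coding gene nearest to CD274 by distance on the log2(FPKM + 0.1) scale was IFIH1, which encodes the RNA sensor MDA5, at 16.4 and 2.03 FPKM (distance 0.32). For NT5E it was NNMT, a nicotinamide methyltransferase, at 127 and 40.6 FPKM (0.10), and for PDCD1LG2 it was AMMECR1L at 29.8 and 9.77 FPKM (0.17). The nearest genes to CD276, CD47, PVR and NECTIN2 were THOC3, ANKIB1, HMGN4 and GBA2, at distances of 0.020, 0.015, 0.010 and 0.015.

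Among protein-coding genes the log2 ratio followed GC content (Spearman rho 0.33 across 10663 genes of the same pair of libraries, which are not independent replicates). The GC content of the longest transcript was 38.4% for CD47, 40.9% for CD274, 41.9% for PDCD1LG2, 45.2% for NT5E, 56.5% for PVR, 59.4% for NECTIN2 and 61.0% for CD276. CD274 and PDCD1LG2 lay in GC bin 3 of the 10 named above, whose median log2 ratio was -0.28. With the trend with GC content and length removed, CD274, PDCD1LG2 and NT5E had log2 ratios of -2.65, -1.65 and -1.60 and stayed beyond 2-fold.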

How the data were processed

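Per the labels' protocols, RNA was extracted with Trizol. HISAT2 2.0.5 and the build hg18 appear in the submitters' processing notes; the counter, annotation, strandedness and poly(A) selection are not stated in those sources. The authors deposited 1 table of FPKM per library. All 58735 gene identifiers matched GENCODE release 29 (GRCh38), the source of symbols, exon lengths and gene positions. FPKM times exon length gave whole multiples of 1 step (58.3) for 100% of values above 0 in both tables (tolerance 0.001), which were taken as reads. With 1 library per group no count test was possible.

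Computed here were log2 ratios of FPKM plus a pseudocount of 0.1, calls at 2-fold for measured genes (1 FPKM or more in either library), and folds of recovered reads with exact (Clopper-Pearson) 95% intervals. GC content came from the longest transcript, and trends were removed as medians in 20 bins of GC and 20 of length; 3 measured genes had no GC value. Arm 9p was taken to end at 43 Mb. The 7 genes and the lists were chosen with earlier results of these data known. Named genes were the 7, SIK2, nearest neighbours, neighbours of CD274 within 1 Mb, in each list the 4 measured genes with the largest ratios in either direction, and the gene nearest in level; any others were picked with their values in view. A planned comparison of protein sequences was not made. The steps were tested on simulated data. Software was Python 3.11.15 with scipy 1.17.1, pandas 2.3.3, numpy 2.4.6 and matplotlib 3.10.9.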

Additional observations from a re-analysis of the deposited data

How the results depend on the processing

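The 7 alternatives for each gene were equal totals, equal upper quartiles, pseudocounts of 1 and 0.01, no filter, a filter of 5 FPKM and removal of the GC and length trend. Under them the log2 ratio ranged from -2.86 to -2.46 for CD274, -1.83 to -1.65 for PDCD1LG2, -1.76 to -1.60 for NT5E, -0.97 to -0.59 for PVR, -0.73 to -0.29 for NECTIN2, -0.18 to 0.08 for CD47 and 0.75 to 1.24 for CD276. The count of 3 genes at least 2-fold lower held under each of these, and a threshold of 1.5-fold gave 4, with PVR. The count of genes at least 2-fold higher was 0 rather than 1 with a pseudocount of 1 and with the trend removed. The median of the 7 genes was -0.61 at equal totals and -0.59 at equal upper quartiles, by the change in scaling. With the trend removed it was -0.97, and the cause of that trend was not tested. Over all measured genes, 1065 lower and 1414 higher became 621 and 760 with a pseudocount of 1 and 2619 and 4008 with no filter. They became 551 and 430 with a filter of 5 FPKM, and 2735 and 2541 at 1.5-fold. The size of such counts changes by the construction of each rule, but their balance need not. Lower genes outnumbered higher ones with the filter of 5 FPKM and at 1.5-fold, unlike in the main setting. The higher genes of the whole table were 1723 and the lower 777 at equal totals. No paired analysis was possible because each group held 1 library, and no library could be left out. For the related lists and the neighbours, 75 of 207 and 65 of 161 values moved under an alternative, and the medians of the other B7 family list and of the neighbours of PVR and NECTIN2 changed sign under at least 1, as given above. Depth limits the genes with few reads, such as MLANA and ULBP2, more than the 7.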
